A study of Homo sapiens with 11 samples.

Results

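The 6 early-response genes of the Krüppel-like factor family are described here in MDA-MB-231, a human triple-negative breast cancer line in long use: KLF2, KLF4, KLF5, KLF6, KLF10 and KLF11. They were chosen by symbol. On the HG-U133 Plus 2.0 arrays, a platform of short oligonucleotides on which several probe sets can read 1 gene, 14 of 41091 probe sets with a single gene symbol belonged to these 6 of 19775 genes. KLF6 had 5 probe sets, KLF10 had 1, and KLF2, KLF4, KLF5 and KLF11 had 2 each. RNA was measured on 11 arrays. All cells were held for 4 h in charcoal-stripped serum before a treatment of 3 h, so the arrays hold a single time point although the series title speaks of a time course. E2-BSA, a conjugate of estradiol with the carrier protein bovine serum albumin, had 2 arrays at 1 µM. E2-BSA at 1 µM was also given with 10 µM ICI, an antagonist that the labels name by this abbreviation alone, and with 10 µM G15, which blocks the estrogen receptor GPER of the G protein-coupled class, with 1 array each. ICI and G15 alone at 10 µM, free estradiol at 1 µM, the carrier BSA at 1 µM and the vehicle ethanol at 0.1% had 1 array each. Untreated cells had 2 control arrays. Whether duplicates were separate cultures is not stated. The p-values rest on the spread between arrays, which may be technical, and the number of arrays limits the precision.

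Krüppel-like factors bind GC-rich and CACCC-type sequences through zinc fingers at the end of the protein, and many of their genes are switched on within hours by growth factors, cytokines, mechanical force or stress. KLF2 and KLF4 are best known from endothelium, where the kinase ERK5 and the factor MEF2 induce them under flow, and KLF4 also drives epithelial differentiation and cell cycle arrest. KLF5 promotes proliferation of epithelial cells, KLF6 is induced by injury and activates the cell cycle inhibitor gene CDKN1A, and KLF10 and KLF11 are early genes of transforming growth factor beta (TGF-beta) that recruit the corepressor SIN3A.

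Promoter sequences show what the members share outside the arrays. RefSeq windows of GRCh38.p14, running from 250 bases before to 50 bases after a gene's start, were found for 5 of the 6 members, in 7 windows. KLF10 was the other member. The 4 windows below belong to the 2 genes that moved in opposite directions between the array sets described further on, KLF4 and KLF5, and to the 2 members with a rare element, KLF2 and KLF11. Capitals mark every GC box (GGGCGG on either strand), every half-site of the cAMP response element (TGACG on either strand) and the MEF2 site. Sequences run 5′ to 3′ on the gene's strand.
KLF4, chr9:107489720-107490019, minus strand: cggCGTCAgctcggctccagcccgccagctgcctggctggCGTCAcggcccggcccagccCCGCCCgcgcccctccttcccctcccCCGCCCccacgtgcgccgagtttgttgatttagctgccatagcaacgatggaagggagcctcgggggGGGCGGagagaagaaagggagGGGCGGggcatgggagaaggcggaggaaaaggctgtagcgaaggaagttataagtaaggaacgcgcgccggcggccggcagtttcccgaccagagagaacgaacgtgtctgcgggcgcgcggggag
KLF5, chr13:73058755-73059054, plus strand: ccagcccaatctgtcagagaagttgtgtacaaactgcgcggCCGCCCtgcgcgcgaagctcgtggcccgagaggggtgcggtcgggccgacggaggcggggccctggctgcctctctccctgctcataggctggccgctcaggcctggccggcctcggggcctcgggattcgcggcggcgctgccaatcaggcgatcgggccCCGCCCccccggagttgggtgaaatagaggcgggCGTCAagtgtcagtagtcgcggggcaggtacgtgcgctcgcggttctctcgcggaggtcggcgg
KLF2, chr19:16324576-16324875, plus strand: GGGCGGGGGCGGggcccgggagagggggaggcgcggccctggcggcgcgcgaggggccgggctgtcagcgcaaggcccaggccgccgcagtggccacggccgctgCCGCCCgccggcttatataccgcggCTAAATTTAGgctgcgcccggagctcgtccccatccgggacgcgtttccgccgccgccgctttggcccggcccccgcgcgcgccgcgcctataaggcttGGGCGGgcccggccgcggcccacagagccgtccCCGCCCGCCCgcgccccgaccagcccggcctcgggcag
KLF11, chr2:10043971-10044270, plus strand: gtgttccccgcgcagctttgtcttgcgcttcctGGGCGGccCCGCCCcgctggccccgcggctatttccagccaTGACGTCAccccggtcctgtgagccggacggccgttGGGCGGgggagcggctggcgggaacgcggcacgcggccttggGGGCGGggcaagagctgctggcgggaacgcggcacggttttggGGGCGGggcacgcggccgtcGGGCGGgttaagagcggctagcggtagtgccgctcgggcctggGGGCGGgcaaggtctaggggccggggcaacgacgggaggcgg

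KLF2 had 6 GC boxes in its window, some of them overlapping, and KLF4 had 4. The KLF11 window shown had 7, and the KLF5 window shown had 2, as did the KLF6 window. The KLF5 gene has a second window, starting at position 73054726 of chromosome 13, with none and with 40.7% G and C, against 71.3% in the window shown and a median of 58.7% over all 35116 windows. A GC box was found in 45.0% of all windows, so its presence is common. The MEF2 site in KLF2 began 120 bases before the start and was the single MEF2 match among the 7 windows, and 2.99% of all windows held one. The KLF11 window held a full cAMP response element, TGACGTCA, 176 bases before the start, made of 2 overlapping half-sites, which 1.85% of all windows held. KLF4 had 2 half-sites and KLF5 had 1, and a half-site was found in 24.6% of windows. No serum response CArG box was found in any of the 7 windows, and 1.29% of all windows held one. The second KLF11 window, starting at position 10043579 of chromosome 2, had 2 GC boxes and neither a half-site nor a full cAMP element. These matches describe letters in a window, not bound sites.

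The deposited values are on a log scale, taken as log2, centred on the median of each probe set. They give differences between arrays but no level, so the levels of the 6 genes cannot be ranked and the markers of the cell line could not be checked. The arrays fell into 2 sets by their poly-A spike-ins, which are bacterial RNAs put in ahead of labelling. The 24 spike-in probe sets averaged between 1.40 and 1.62 in the first E2-BSA, the estradiol and the first control array, and between -0.56 and 0.10 in the other 8 arrays. Of these 8, the array with E2-BSA and G15 stood highest. The labels name no batch, and spike-in amount, culture and handling cannot be told apart here. Each duplicated group has 1 array in either set. The fits therefore carried a term for the array set.

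KLF4 and KLF10 were higher, and KLF5 was lower, in the 3 arrays of the high spike-in set than in the other 8. These 3 of the 6 members passed limma's test, where 24.1% of all 19775 genes passed, 2789 higher and 1983 lower. KLF4 had the largest difference of the 6, 2.44 ± 0.17 (SE, log2 difference, 95% interval 2.05 to 2.82, limma adjusted p = 3.3e-04), which is 5.41-fold if the log base is 2. It stood at 1.92 in the first E2-BSA array, 1.82 with estradiol and 2.04 in the first control. In the other set it was at -0.26 with E2-BSA and ICI, -0.64 with ICI, -0.50 with E2-BSA and G15, -0.53 with G15, -0.31 with BSA, -0.54 in the second E2-BSA array, 0.26 with ethanol and -0.37 in the second control array. The sets did not overlap, and the ethanol array was the nearest of the 8 to the set of 3. The KLF4 probe sets differed in size, 3.04 ± 0.26 for 220266_s_at and 1.83 ± 0.14 for 221841_s_at, each at limma adjusted p = 0.00104 among the 41091 probe sets.

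KLF10 differed by 1.09 ± 0.11 (limma adjusted p = 6.4e-04), or 2.13-fold if the log base is 2. Its single probe set read 0.59 in the first E2-BSA array, 0.66 with estradiol and 0.65 in the first control. The other 8 arrays ran from -0.59 in the second E2-BSA array to 0.05 with G15, with a median of -0.30. The sets did not overlap. The high set spanned less than 0.1, a narrower range than the 8 arrays, which hold more treatments.

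KLF5 differed by -0.55 ± 0.13 (limma adjusted p = 0.0204). It was at -0.49 in the first E2-BSA array, -0.52 with estradiol and -0.27 in the first control. The other 8 ran from -0.25, with E2-BSA and G15, to 0.53, with ethanol, with a median of 0.23, so the sets were separated by a narrow margin. The call did not last when any 1 of the 4 duplicated arrays was left out, with differences of -0.61 to -0.50 and adjusted p of 0.0673 to 0.171. Probe set 209212_s_at differed by -0.85 ± 0.20 (adjusted p = 0.0226) and 209211_at by -0.26 ± 0.12 (adjusted p = 0.180).

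KLF2, KLF6 and KLF11 did not pass between the sets. KLF2 was at -0.33 ± 0.15 (limma adjusted p = 0.144), with -0.27, -0.07 and -0.23 in the first E2-BSA, estradiol and first control arrays and -0.02 to 0.41 in the other 8. Its probe sets disagreed: 219371_s_at differed by -0.57 ± 0.13 and passed (adjusted p = 0.0201, among probe sets of which 21.6% passed), while 226646_at was at -0.08 ± 0.23 (adjusted p = 0.831). KLF6 was at -0.30 ± 0.16 (adjusted p = 0.226) and its sets overlapped, with all 5 probe sets below 0, from -0.42 to -0.16, and none passing. KLF11 was at 0.14 ± 0.12 (adjusted p = 0.432), and its sets overlapped as well. By gene means, the 3 arrays lay entirely above or below the other 8 for KLF2, KLF4, KLF5 and KLF10. These are 4 of the 6 members, against 29.8% of all genes. Among their single probe sets, 226646_at of KLF2 and 209212_s_at of KLF5 overlapped between the sets.

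**Figure D1:**
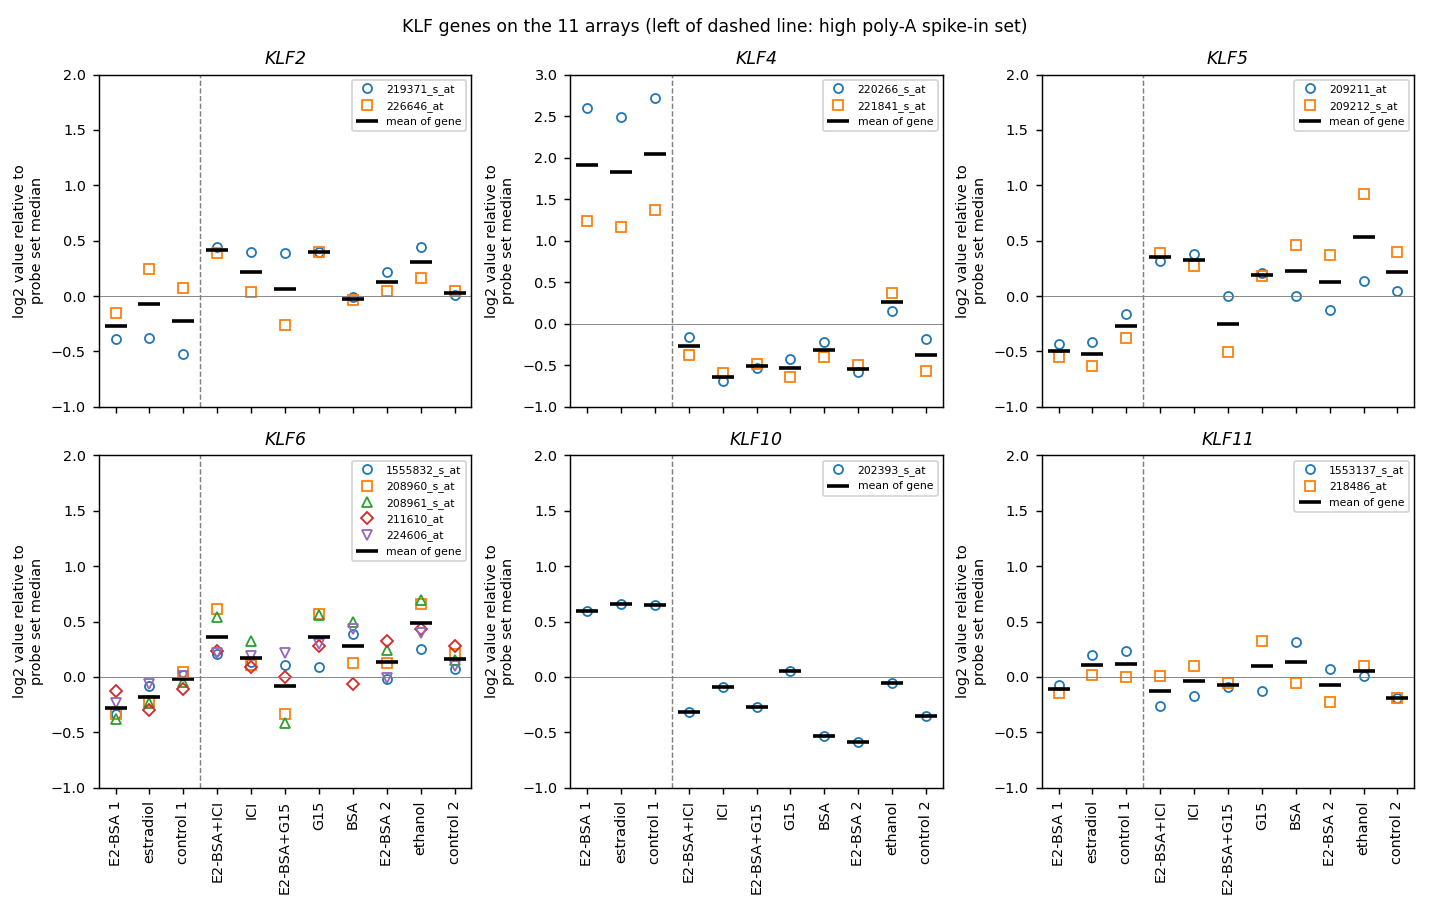
Log2 values around each probe set's median (vertical axis) for each KLF gene on the 11 arrays, with open symbols for single probe sets and bars for the gene mean. Left of the dashed line are the 3 arrays of the high poly-A spike-in set, where KLF4 lies between 1.82 and 2.04 and KLF10 between 0.59 and 0.66, above every array on the right.

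**Figure D2:**
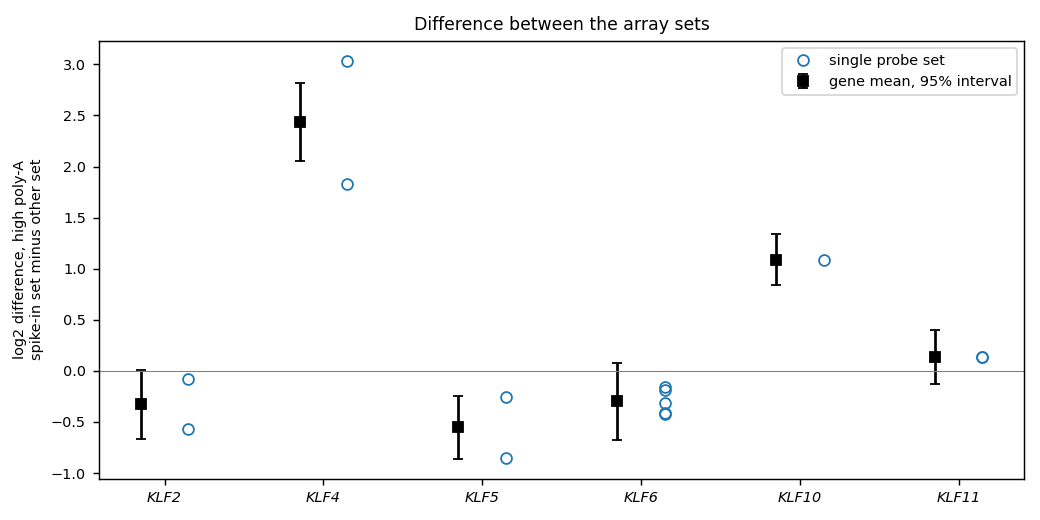
Log2 difference of the high poly-A spike-in set minus the other set for each gene (squares, with 95% intervals from limma) and for its single probe sets (circles). KLF4 at 2.44 and KLF10 at 1.09 lie above 0 and KLF5 at -0.55 below it, while the intervals of KLF2, KLF6 and KLF11 include 0.

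The lists of genes around these factors were chosen with earlier results of these data known, and each count below stands beside the 24.1% of all genes that passed between the sets. Of the 11 other KLF genes, 2 passed (18.2%, below that share), both higher: KLF3, a repressor, at 0.78 ± 0.12 (limma adjusted p = 0.0032) and KLF9, known as a glucocorticoid-responsive gene, at 0.48 ± 0.13 (adjusted p = 0.0288). Of 8 measured SP genes, the family's closest relatives, SP3 alone passed (12.5%, below the share of all genes), at -0.45 ± 0.11 (adjusted p = 0.0205). The medians of these lists were 0.19 and -0.10, and that of all genes was 0.07.

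Of 17 measured TGF-beta pathway genes and early targets, 6 passed as higher and 3 as lower (52.9% in all, against 24.1% of all genes). SMAD7, the inhibitory SMAD, was at 1.50 ± 0.13, the receptor gene TGFBR2 at 1.09 ± 0.17 and the ligand gene TGFB2 at 0.72 ± 0.11. SMAD2, ID2 and PMEPA1 were the others that were higher. The ligand gene TGFB1 was lower, at -1.11 ± 0.21, as were ID1, an inhibitor of differentiation factors, at -1.58 ± 0.17, and its relative ID3, at -1.24 ± 0.27. The median of this list was 0.20.

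Among 13 regulators and cofactors of KLF factors, 4 passed, all higher (30.8%, near the 24.1% of all genes). They were MEF2C, which encodes a MEF2 factor, at 1.22 ± 0.13, the ETS factor gene ELK1 at 0.79 ± 0.11, WWP1, a ubiquitin ligase of KLF5 and KLF2, at 0.51 ± 0.13, and MAPK7, which encodes ERK5, at 0.44 ± 0.10. Of 14 genes known as targets of KLF factors in various cell types, 4 were higher and 5 were lower (64.3% in all, against 24.1% of all genes, of which 2789 were higher and 1983 lower). THBD, the endothelial anticoagulant receptor gene, differed by 2.03 ± 0.12, and CDKN1A by 0.50 ± 0.12. DEGS1, a ceramide synthesis gene, was at 1.33 ± 0.12, and MAOA, a monoamine oxidase gene, at 0.64 ± 0.12. Lower were ENG, the endoglin gene, at -1.22 ± 0.14, BIRC5, the survivin gene, at -0.74 ± 0.13, PDGFA at -0.69 ± 0.21, the sphingosine phosphate receptor gene S1PR1 at -0.41 ± 0.10 and NOS3, the endothelial nitric oxide synthase gene, at -0.36 ± 0.10. The medians were 0.17 for the regulators and -0.16 for the targets. The 5′ to 3′ probe sets of GAPDH, read as 3′ minus 5′, were at -0.07 to -0.04 in the high set and -0.15 to 0.08 in the other, and those of ACTB at -0.31 to -0.15 and -0.17 to 0.35. The GAPDH probe sets themselves did not overlap between the sets, with -0.30 to -0.24 in the high set and 0.00 to 0.23 in the other for the 3′ one, -0.17 to -0.14 and -0.02 to 0.25 for the middle one, and -0.26 to -0.16 and -0.02 to 0.31 for the 5′ one. The 3′ probe set of ACTB did not overlap either, at -0.20 to -0.07 in the high set and -0.02 to 0.15 in the other. The part of RNA quality and of this control shift in the KLF set differences was not tested.

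None of the 6 genes passed for E2-BSA. The conjugate, which is used because its carrier keeps most of the hormone outside the cell, was compared over 4 matched pairs, each an array with E2-BSA and its partner without it. By limma 0 of 19775 genes (0%) passed, and 927 reached an unadjusted p under 0.05. KLF10 had a negative difference in all 4 pairs, with -0.06 between the first arrays, -0.24 between the second, -0.23 with ICI and -0.33 with G15. Its fitted difference was -0.21 ± 0.08 (SE, 95% interval -0.39 to -0.04), with a limma adjusted p of 0.903. Of all genes, 8.26% were lower in all 4 pairs. KLF10 is an estrogen-responsive gene in human osteoblast lines that carry an estrogen receptor. A link between that response and the differences seen here was not tested.

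KLF5 was at -0.18 ± 0.09 (95% interval -0.40 to 0.03) and differed by -0.22, -0.10, 0.03 and -0.44 in the same order of pairs. KLF6, at -0.14 ± 0.12 (-0.40 to 0.13), differed by -0.26, -0.03, 0.19 and -0.44. The 5 KLF6 probe sets parted in the G15 pair: 208961_s_at and 208960_s_at differed by -0.97 and -0.90, 211610_at by -0.28, 224606_at by -0.09 and 1555832_s_at by 0.02. The gene mean of -0.44 in that pair lies between these unlike readings.

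KLF2 was at -0.02 ± 0.10 (-0.26 to 0.22), KLF4 at 0.03 ± 0.12 (-0.24 to 0.30) and KLF11 at -0.09 ± 0.08 (-0.28 to 0.10). For the gene means of all 6 genes, these limma intervals leave out changes of 0.5 in either direction, as an average over the 4 pairs. They do not speak for E2-BSA without an antagonist, for E2-BSA with 1 antagonist or for each probe set. The KLF6 probe sets 208961_s_at and 208960_s_at were less precise, at -0.25 ± 0.20 and -0.21 ± 0.21. KLF4 differed by 0.38 with ICI and by 0.03 with G15, against -0.13 and -0.17 in the pairs without an antagonist. Its probe sets 220266_s_at and 221841_s_at had opposite signs with G15, at -0.10 and 0.16, and between the second arrays, at -0.40 and 0.07. KLF2 differed by -0.04, 0.10, 0.20 and -0.33. No gene mean of a member differed by more than 0.5 in any of the 4 pairs. Some single probe sets did, beside those of KLF6 with G15 given above. With G15, KLF5 209212_s_at was at -0.68 and 209211_at at -0.21, and KLF2 226646_at at -0.66 and 219371_s_at at -0.01. With ICI, KLF4 220266_s_at was at 0.53 and KLF6 208960_s_at at 0.502. Shares of all genes past that size were 6.98% and 0.622% for the first and second arrays, 1.38% with ICI and 7.68% with G15, so the pairs differ in overall spread.

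**Figure D3:**
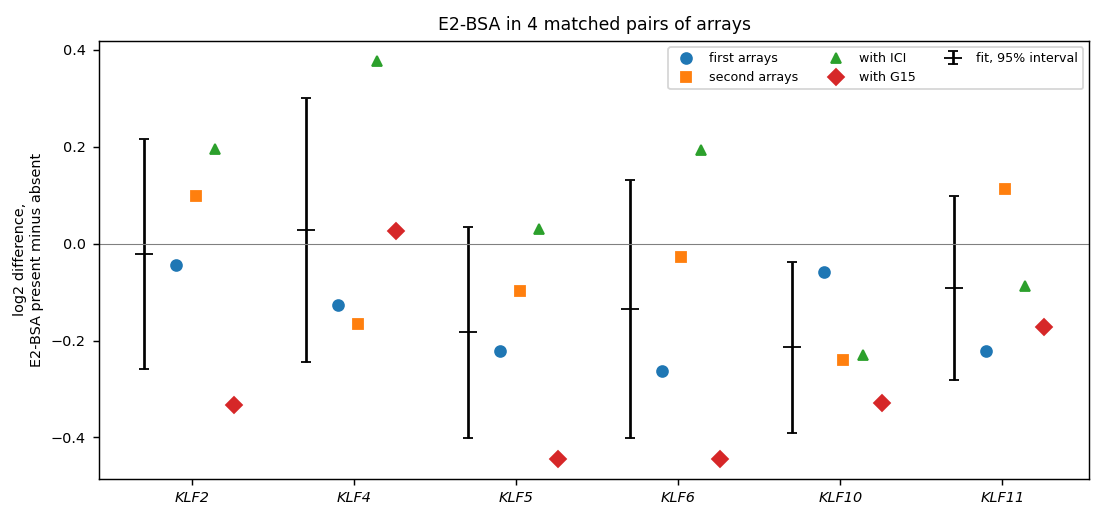
Log2 difference of E2-BSA present minus absent for each KLF gene, as fitted by limma (black bars with 95% intervals) and in each of the 4 matched pairs (coloured symbols). KLF10 lies below 0 in all 4 pairs, from -0.33 to -0.06, and the other genes have pairs on both sides of 0.

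The antagonists were also tested for a change in the E2-BSA difference itself, from group means with the set term and 1 residual degree of freedom. For ICI the largest change among the members was that of KLF4, 0.52 ± 0.25 (limma adjusted p = 1.0), and 0 genes (0%) were called, with 584 under 0.05 before adjustment. For G15 the largest was that of KLF2, -0.36 ± 0.21 (adjusted p = 0.608), and 2 of all genes were called (0.0101%), neither of them a member. No member passed in either test.

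ICI and G15 were then set against matched arrays without them, and again 0 members and 0 of all genes (0%) passed by limma, with 3219 and 2042 genes under 0.05 before adjustment. KLF10 had the largest difference of the 6 in both. With ICI it was at 0.27 ± 0.11 (limma adjusted p = 0.296), with differences of 0.27 in the presence of E2-BSA and 0.26 in its absence. With G15 it was at 0.36 ± 0.11 (limma adjusted p = 0.482), with differences of 0.31 in the presence of E2-BSA and 0.40 in its absence. The median of all genes was 0.14 for ICI and 0.10 for G15, a shift that these values include. The other 5 members ranged from 0.00 (KLF4) to 0.24 (KLF2) with ICI and from -0.20 (KLF5) to 0.15 (KLF2) with G15. The KLF5 probe sets had opposite signs with G15, at -0.55 ± 0.20 for 209212_s_at and 0.15 ± 0.12 for 209211_at.

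Free estradiol was set against the control within the high spike-in set, and no member passed. By limma 0 genes (0%) passed, and 1397 reached an unadjusted p under 0.05. In estradiol minus the first control array, KLF2 differed by 0.16, KLF4 by -0.22, KLF5 by -0.25, KLF6 by -0.16, KLF10 by 0.01 and KLF11 by -0.01. The fitted values ran from -0.23 ± 0.17 (KLF5) to 0.17 ± 0.18 (KLF2). Estradiol had 1 array, and the intervals were wide, from -0.63 to 0.35 for KLF4 and from -0.39 to 0.25 for KLF10. The ethanol vehicle lay in the other set, so estradiol could not be compared with it inside a set.

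In the ethanol array all 6 genes were above the second control array, but none passed. Limma called 17 genes (0.0860%), all higher, and 0 without the second control array, without the second E2-BSA array or with no term for the array set. KLF4 was at 0.26 with ethanol, against -0.37 in the second control array, and its fitted difference was 0.73 ± 0.21 (limma adjusted p = 0.573). By gene means, its difference of 0.64 between single arrays was the only one among the members over 0.5. Of all genes, 3.49% were past that size. KLF6 differed by 0.33 between the same arrays, KLF5 by 0.31, KLF10 by 0.30, KLF2 by 0.28 and KLF11 by 0.24, beside a median of 0.05 over all genes. The ethanol difference of KLF4 was larger on 221841_s_at (0.94 ± 0.17 in the fit on probe sets, adjusted p = 0.353) than on 220266_s_at (0.53 ± 0.33, adjusted p = 0.913). The ethanol array held the highest values of KLF4, KLF5 and KLF6 among the 8 arrays of its set. It also had the highest mean of the 18 hybridisation control probe sets, 0.77, against -0.28 to 0.21 in the other 10 arrays, and the part of that in the KLF values was not tested. Among the listed neighbours of the family, ID2 was called, at 2.15 ± 0.16 (adjusted p = 0.00682), a call lost in the same 3 fits that called 0 genes.

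The carrier BSA left the 6 genes without a call, although limma called 70 genes (0.354%) between BSA and control, 4 without the second control array and 5 without the second E2-BSA array. KLF11 was at 0.13 with BSA, narrowly its highest gene mean on the 11 arrays, against -0.19 in the second control array. It was at 0.11 in the first control and estradiol arrays. Its probe sets parted with BSA, at 0.31 for 1553137_s_at and -0.05 for 218486_at. The fitted difference of KLF11 was 0.22 ± 0.15 (limma adjusted p = 0.464), with 0.36 ± 0.20 and 0.08 ± 0.17 for the same probe sets. KLF4 was at 0.16 ± 0.21, KLF6 at 0.06 ± 0.21, KLF5 at -0.04 ± 0.17, KLF2 at -0.11 ± 0.18 and KLF10 at -0.17 ± 0.14. The median of all genes was 0.17, and KLF11 alone of the 6 lay above it. Between E2-BSA and its carrier, which share this BSA array with the comparison before, 61 genes were called (0.308%) and no member, with 0 genes called on leaving out either of those 2 arrays. KLF11 had the largest difference, -0.31 ± 0.15 (adjusted p = 0.308), where the median of all genes was -0.19.

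**Figure D4:**
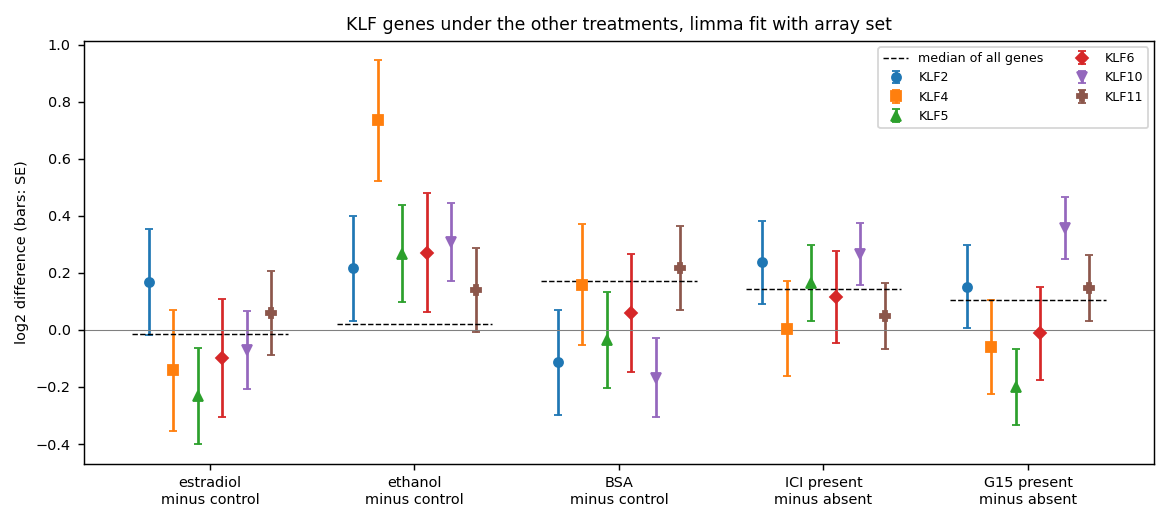
Log2 differences of the 6 KLF genes (symbols, with SE bars from limma) for estradiol, ethanol and BSA against control and for ICI and G15 present against absent; dashed lines give the median of all genes. KLF4 with ethanol, at 0.73, is the highest point, and no point passed the test.

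Within the set of 8 the members differed in how much they varied. The standard deviation over the 8 arrays was 0.28 for KLF4, 0.23 for KLF10, 0.23 for KLF5, 0.18 for KLF6, 0.17 for KLF2 and 0.11 for KLF11, beside a median of 0.15 over all genes. These are values of gene means, and averaging unlike probe sets lowers them. The KLF11 probe sets were at 0.18 each, and those of KLF6 ran from 0.13 to 0.35. KLF2 was highest with E2-BSA and ICI, at 0.41, and lowest with BSA, at -0.02. KLF10 was highest with G15, at 0.05. KLF5 and KLF6 were both highest with ethanol and lowest with E2-BSA and G15, at -0.25 and -0.09. The array with E2-BSA and G15 also had the spike-in mean nearest the high set, 0.10. The part of that in the KLF values was not tested.

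Likeness between genes was measured by Pearson's r over the 11 arrays after each set's own mean was taken out, as a description, since all genes share the same arrays. Among the members, KLF5 and KLF6 were the most alike, with r of 0.88, and KLF6 and KLF4 followed with 0.66. KLF5 and KLF6 share the ethanol and the E2-BSA and G15 arrays as their extremes, as given above. How often pairs of other genes reach such r was not counted. KLF4 and KLF10, which differed the same way between the sets, had r of 0.15 within them. Over all genes, WSB1, TRA2B and BRD2 were most like KLF5 (0.97, 0.94 and 0.93), and EVPLL, NFKB2 and CTTNBP2 were most like KLF4 (0.96, 0.95 and 0.92). SDC3, PKM and ZNF75A were most like KLF6 (each 0.93). FCN3, EIF5A and MMAB were most like KLF2 (0.94, 0.91 and 0.91). ZFPM1, ZNF766 and PINX1 were most like KLF10 (0.95, 0.93 and 0.90), and CDKN2D, ACD and SLCO4A1-AS1 were most like KLF11 (0.94, 0.93 and 0.92).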

How the data were processed

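RNA of 11 MDA-MB-231 samples was hybridised to HG-U133 Plus 2.0 arrays, following the Affymetrix protocol per the labels' protocols. The deposited table holds 54675 probe sets as values between -4.20 and 6.69, taken as log2. The authors' summarisation, normalisation and log base are not given in the sources used here. In 51.7% of probe sets the 2 smallest values by size are equal and opposite (to 1e-05), as centring on a median over an even, larger set of arrays would leave.

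Probe sets were named from the platform annotation (1 symbol for 41091, several for 1801, none for 11721, 62 controls) and averaged per gene, giving 19775 genes. No filter on low values could be applied. Limma 3.58.1 (R 4.3.3, prior variance with a trend) was fitted to all genes and arrays with additive terms for E2-BSA, ICI, G15, estradiol, ethanol, BSA and the array set, leaving 3 residual degrees of freedom. Since the values hold no level, that trend followed the mean of the centred values. A fit with a constant prior variance was among the alternatives. Benjamini-Hochberg adjustment over all genes was read at 0.05. Groups of a single array borrow the spread of the rest. The array sets were the split at the largest gap, 1.30, of the mean of 24 poly-A spike-in probe sets (next gap 0.39). For the duplicates, the set is the same split as the replicate number. The deviations of the first control and first E2-BSA arrays from their group means correlated with r of 0.81 over genes. Genes named were all 6 members, the list members that passed, and the 3 genes most like each member. The members and lists were chosen with earlier results of these data known. Alternatives are given in the closing section.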

Additional observations from a re-analysis of the deposited data

Results flagged for a closer look

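The mean of the KLF4 probe sets had E2-BSA differences of opposite sign with and without an antagonist. The differences were 0.38 with ICI and 0.03 with G15, against -0.13 and -0.17 in the pairs without an antagonist. The single probe sets did not share the pattern: with G15 220266_s_at was at -0.10 and 221841_s_at at 0.16, and between the second arrays they were at -0.40 and 0.07. The mean of the pairs with an antagonist exceeded that of the pairs without by 0.35. KLF4 was flagged because of these signs, so the size of this pooled difference is no separate support. The share of all genes with such signs was not counted, and the pooled difference itself was not tested. The tests for each antagonist gave 0.52 ± 0.25 for ICI (limma adjusted p = 1.0) and 0.17 ± 0.25 for G15 (adjusted p = 0.858).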

How the results depend on the processing

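KLF4 and KLF10 kept their calls between the array sets under all 9 alternatives tried for that comparison, with differences of 1.68 to 2.56 and 0.99 to 1.19 and adjusted p of at most 0.0153 and 0.0210. KLF5 kept its call in 5 of 9, and lost it with any 1 of the duplicated arrays left out (-0.61 to -0.50), where fewer arrays enter the fit. In the fit on single probe sets, a gene counted as called if any 1 of its probe sets passed. There KLF5 passed on 209212_s_at (limma adjusted p = 0.0226) but not on 209211_at (0.180). KLF2 was called in the fit on single probe sets alone, through 219371_s_at (limma adjusted p = 0.0201) and not 226646_at (0.831). In the treatment comparisons no member was called under any alternative, and the smallest adjusted p was 0.187. Their signs, never past the test, did change. Without a replicate block, the fit with no term for the array set, the controls average both sets: BSA minus control gave 0.050 for KLF2, -1.06 for KLF4 and 0.24 for KLF5. Ethanol gave -0.48 for KLF4 and -0.24 for KLF10, estradiol 1.08 and 0.48 for the same genes, ICI -1.21 for KLF4, -0.28 for KLF10 and -0.020 for KLF11, G15 0.077 for KLF5, 0.14 for KLF6 and -0.19 for KLF10, and E2-BSA minus BSA -0.070 for KLF2, 1.09 for KLF4 and 0.50 for KLF10. It called 5 genes for BSA and 0 for ethanol, for E2-BSA minus BSA and for the G15 interaction. With arrays centred on the median gene, BSA gave -0.091 for KLF6, ICI -0.12 for KLF4, -0.0059 for KLF6 and -0.073 for KLF11, and E2-BSA minus BSA 0.029 for KLF4, 0.012 for KLF5 and 0.11 for KLF10, and the G15 interaction called 65 genes. With quantile normalization, E2-BSA gave 0.017 for KLF2, BSA -0.20 for KLF6, ICI -0.020 for KLF4, -0.035 for KLF5, -0.091 for KLF6 and -0.083 for KLF11, G15 0.016 for KLF4, and E2-BSA minus BSA 0.14 for KLF5 and 0.094 for KLF6. It called 36 genes for ethanol and 392 for the G15 interaction. Single probe sets gave 8 calls for ethanol, and group means with the set term 3 for ICI. The cause of these changes was not tested.

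On leaving out 1 of the 4 duplicated arrays, calls ranged from 4 to 58 for BSA, 0 to 15 for ethanol, 0 to 47 for E2-BSA minus BSA and 1332 to 3610 between the sets. They were lowest without the second control or the second E2-BSA array. Signs changed within -0.11 to 0.0077 for KLF5 and -0.031 to 0.11 for KLF6 with BSA, and -0.031 to 0.24 for KLF11 with ethanol. They changed within -0.16 to 0.0092 for KLF6, -0.20 to 0.0081 for KLF10 and -0.0060 to 0.17 for KLF11 with estradiol. The ranges were -0.12 to 0.13 for KLF4 and -0.088 to 0.18 for KLF11 with ICI, -0.19 to 0.069 for KLF4 and -0.084 to 0.061 for KLF6 with G15, and -0.0061 to 0.15 for KLF2 and -0.23 to 0.031 for KLF4 in E2-BSA minus BSA. For the interactions, leaving out a duplicate leaves 0 residual degrees of freedom and was not run. Signal over background is not known for these centred values.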
